A study of Homo sapiens with 12 samples.

Results

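The 36 genes described here encode the enzymes and transporters of glycolysis and proteins of the cellular response to low oxygen. They were taken by name, 36 of the 25680 gene symbols in the expression tables, represented by 107 transcripts. The choice was made with earlier results of these data known, so shares of called genes are descriptive only. RNA sequencing was done on MM.1S and U266, established human multiple myeloma cell lines, each exposed for 6 h to 6 µM IT848, which the labels call an NF-kB inhibitor, or to the solvent DMSO. The groups were MM.1S with IT848, MM.1S with DMSO, U266 with IT848 and U266 with DMSO, with 3 libraries each. All were grown in serum-containing RPMI medium. No group was labelled as hypoxic, so oxygen was not a variable of the study. Each line is a single established line, and nothing in the labels tells if the 3 replicates were grown separately, so p-values measure only the spread between these replicates, which may be technical.

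Glycolysis turns glucose into pyruvate. Glucose enters through SLC2A transporters, hexokinase traps it as glucose 6-phosphate, phosphofructokinase commits it to the pathway, and the lower steps yield ATP and pyruvate. Lactate dehydrogenase converts pyruvate to lactate, which SLC16A transporters carry across the membrane. HIF1A is the oxygen-regulated subunit of hypoxia-inducible factor, a transcription factor that binds short sites with the core ACGTG or GCGTG and activates many genes of glycolysis. The EGLN enzymes use oxygen to hydroxylate this subunit, which marks it for degradation, so the factor is controlled largely at the protein level, which RNA does not show.

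Transcript counts totalled 50627690 to 72039748 per library and 18259 to 20966 genes were detected. All 6 plasma cell markers were at or above 1 CPM (counts scaled to library size) in every group, and none of the 5 T and NK cell markers was. The summed plasma cell markers were 2460 to 2530 CPM with IT848 against 3580 to 3630 CPM with DMSO in MM.1S, and 1780 to 1850 against 2450 to 2640 CPM in U266. All 4 stromal (collagen and decorin) markers were above 1 CPM in every group, with sums of 21.6 to 28.0 against 14.7 to 19.4 CPM in MM.1S and 34.8 to 42.8 against 27.5 to 32.4 CPM in U266. In U266, 2 of 4 myeloid and 2 of 3 epithelial markers reached 1 CPM in both groups, and none did in MM.1S. For erythroid markers it was 1 of 3 in both MM.1S groups and none in U266. The labels name 1 cell line per group and no other cell type. The part of any marker list in the results below was not tested. In bulk RNA, fewer cells of a type and less RNA per cell cannot be told apart. Replicate 1 of U266 with IT848 held reads of genes specific to MM.1S at 0.781% of their MM.1S level, against 0.0437% and 0.117% in its fellow replicates (3 genes). Replicate 2 of MM.1S with DMSO held U266-specific reads at 0.428% (11 genes), against 0.0594% to 0.0769% in the MM.1S libraries with IT848. A wider choice of specific genes, added after the data were seen because the first left few, gave 0.869% (22 genes) and 0.437% (53 genes) for these libraries. Calls lost when both libraries are left out are given with the adjusted p without them.

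The promoters of 4 genes on which the results turn are shown to place the HIF core in them: ANKRD37, whose responses in the lines had opposite signs; ADM, which rose in U266; BNIP3, which is nearly silent in MM.1S; and HK2, which fell in MM.1S. Each window runs 5′ to 3′ on the gene's strand, from 250 bases before the RefSeq start (GRCh38.p14) to 50 after it. Capitals mark ACGTG or GCGTG on either strand. The windows are chr4:185396591-185396890 on the plus strand for ANKRD37, chr11:10304823-10305122 on the plus strand for ADM, chr10:131981874-131982173 on the minus strand for BNIP3, and chr2:74833877-74834176 on the plus strand for HK2, which has 2 windows.
ANKRD37: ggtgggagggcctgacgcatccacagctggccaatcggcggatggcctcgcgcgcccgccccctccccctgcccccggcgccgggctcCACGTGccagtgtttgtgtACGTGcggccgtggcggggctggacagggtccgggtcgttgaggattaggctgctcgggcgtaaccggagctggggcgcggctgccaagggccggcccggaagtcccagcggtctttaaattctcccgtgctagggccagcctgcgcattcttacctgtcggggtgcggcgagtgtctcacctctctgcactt
ADM: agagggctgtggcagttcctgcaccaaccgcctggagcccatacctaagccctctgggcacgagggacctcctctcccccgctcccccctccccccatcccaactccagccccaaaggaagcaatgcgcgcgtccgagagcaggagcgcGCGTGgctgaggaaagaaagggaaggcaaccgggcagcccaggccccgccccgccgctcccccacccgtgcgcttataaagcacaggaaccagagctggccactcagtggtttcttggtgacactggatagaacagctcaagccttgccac
BNIP3: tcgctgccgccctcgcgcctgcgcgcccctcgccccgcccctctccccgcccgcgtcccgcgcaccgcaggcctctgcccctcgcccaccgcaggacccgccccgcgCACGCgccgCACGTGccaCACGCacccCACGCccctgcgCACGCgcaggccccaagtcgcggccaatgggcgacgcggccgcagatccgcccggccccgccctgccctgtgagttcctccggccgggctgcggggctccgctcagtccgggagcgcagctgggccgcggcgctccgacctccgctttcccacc
HK2: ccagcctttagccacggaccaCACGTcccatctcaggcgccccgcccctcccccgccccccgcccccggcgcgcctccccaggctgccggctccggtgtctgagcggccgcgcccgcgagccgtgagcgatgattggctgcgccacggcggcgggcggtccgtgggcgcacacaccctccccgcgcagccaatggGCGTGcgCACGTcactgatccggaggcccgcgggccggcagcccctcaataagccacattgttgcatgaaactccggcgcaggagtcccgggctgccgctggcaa
The ANKRD37 window held 2 stretches in capitals, ADM held 1, BNIP3 held 5 and HK2 held 3. The table of promoters had windows for 30 of the 36 genes, 59 windows in all. ACGTG was present on either strand in 22 of these 59 windows (37.3%), against 21.4% of all 35116 windows. These 22 windows belonged to 18 of the 30 genes. Shares here count windows, so a gene with several windows weighs more, and shares per gene over all genes were not computed. GCGTG was in 40.7%, against 36.5%. CACGTG, which contains ACGTG on both strands, was in 15.3%, against 7.26%. The antioxidant element TGACNNNGC was in 11.9% against 13.3%, the NF-kB motif GGNNTTTCC in 6.78% against 6.26% (all 4 windows being those of 1 gene, PFKM), and the heat shock motif GAANNTTC in 1.69% against 6.77%. A match is a run of letters, not a site shown to be bound. The 6 genes with no window were BNIP3L, NDRG1, PFKFB2, SLC2A3, VEGFA and SLC16A1.

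In MM.1S, IT848 was followed by moderate changes in opposite directions within the same pathway. The hexokinase HK2, the lactate dehydrogenase LDHA and PDK1, the kinase that holds back pyruvate dehydrogenase, fell, while the hexokinase HK1, the glucose transporter SLC2A3 and several enzymes of lower glycolysis rose. Of 35 genes tested, 23 were called at an adjusted p below 0.05, 12 higher and 11 lower. That is 65.7%, against 38.3% of all 16782 genes tested, of which 18.7% were higher and 19.6% lower. Among genes with a mean of at least 10 CPM, 20 of 32 were called (62.5%), against 53.0% of all such genes. The median log2 fold change of the 35 was 0.02, against −0.01 for all genes. Log2 fold change fell weakly with transcript length (Spearman correlation −0.173 over all genes and −0.133 over the 35). With this length trend taken out, 21 of the 35 were called, against 37.8% of all genes. Without both libraries with other-line reads, 15 were called, 10 of them higher, against 31.8% of all genes. EGLN3, an oxygen sensor, was not tested: it lay between 0.0396 and 0.159 CPM in all 12 libraries.

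**Figure D1:**
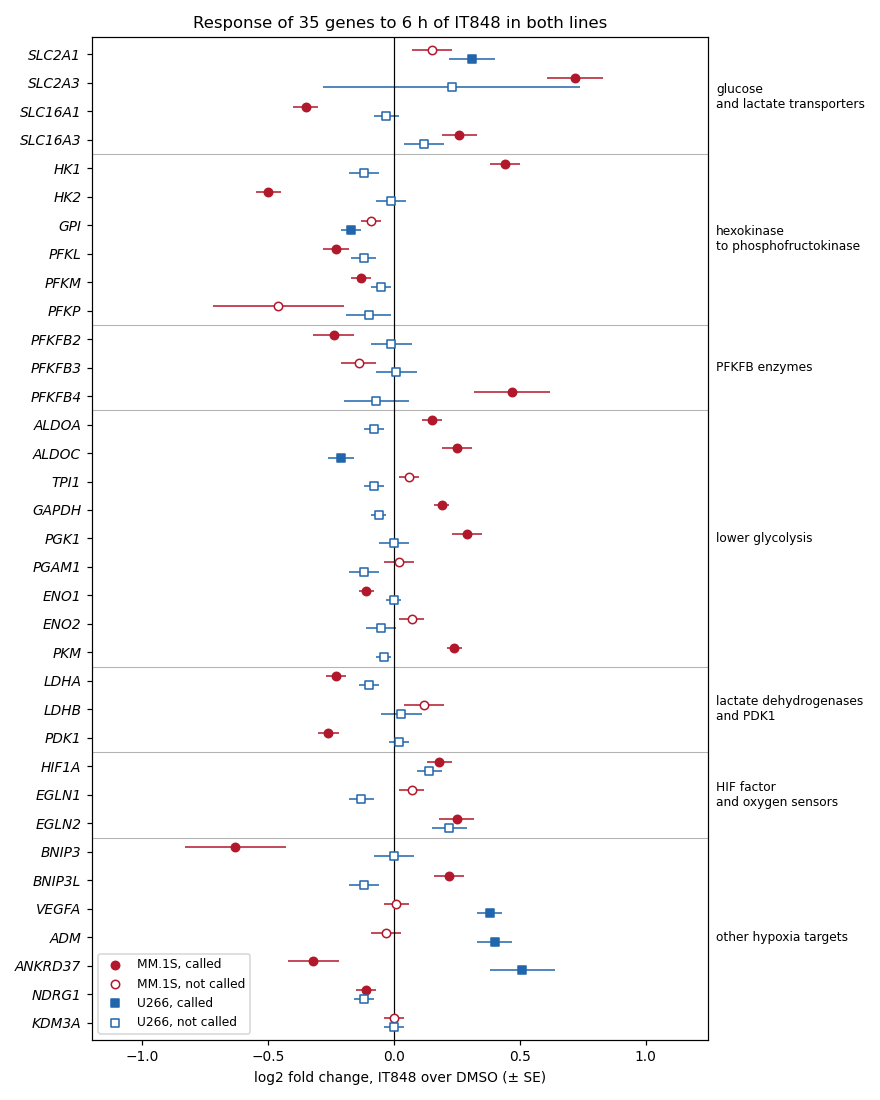
Log2 fold change (IT848 over DMSO, ± SE) of the 35 tested genes by role, with MM.1S as red circles and U266 as blue squares; filled symbols were called at an adjusted p below 0.05. MM.1S has 23 filled symbols on both sides of 0, and U266 has 6.

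Among transporters, SLC2A3, a high-affinity glucose carrier, had 11.2, 11.3 and 10.1 CPM in MM.1S with IT848, against 6.58, 6.84 and 6.37 CPM with DMSO. The groups did not overlap, and the log2 fold change was 0.72 ± 0.11 (adjusted p = 0.000135). SLC16A1, a lactate carrier, fell by 0.35 on the log2 scale (76.2 ± 1.64 against 97.0 ± 1.89 CPM, SD, n = 3), whereas SLC16A3, a carrier known for lactate export, rose by 0.26 (99.6 ± 3.61 against 83.4 ± 4.54 CPM). The SLC16A3 call was lost without replicate 3 of MM.1S with DMSO (adjusted p = 0.0554). For SLC2A1, the widely expressed glucose carrier, the values were 18.8 ± 2.42 and 16.9 ± 0.367 CPM and overlapped, and the difference of 0.15 did not pass the test. It was called without replicate 3 with IT848, the lowest treated library (0.26, adjusted p = 0.00505), and with the length trend taken out (0.20, adjusted p = 0.0457).

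At the hexokinase step, HK2 had 27.6, 26.1 and 25.6 CPM in MM.1S with IT848, against 38.0, 37.7 and 36.6 CPM with DMSO. Every treated library lay below every DMSO library, with a log2 fold change of −0.50 ± 0.05 (adjusted p = 5.88e-06). With the length trend taken out, the HK2 change was smaller, −0.37 ± 0.05, and still called (adjusted p = 1.84e-05). HK1 had 62.4, 55.9 and 58.5 CPM with IT848, against 40.0, 48.3 and 42.7 CPM with DMSO. HK1 moved the other way, again with no overlap, by 0.44 ± 0.06 (adjusted p = 8.48e-05). Of the remaining genes of the upper pathway, the phosphofructokinase subunits PFKL (−0.23 ± 0.05) and PFKM (−0.13 ± 0.04) fell. The PFKM call was lost without replicate 1 of MM.1S with DMSO (adjusted p = 0.078), without replicate 2 or 3 with IT848 (0.0554 and 0.0622), with the compared groups alone (0.0586) and without both libraries with other-line reads (0.0563). The isomerase GPI (−0.09 ± 0.04, adjusted p = 0.0687) did not pass the test, but was called with total count scaling (0.0396) and DESeq2 (0.0482). PFKP (−0.46 ± 0.26) did not pass either, and its value depended on single libraries: it was −0.72 and called (adjusted p = 0.0465) without replicate 1 with IT848, and −0.12 (0.701) without both libraries with other-line reads.

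The PFKFB enzymes set the level of fructose 2,6-bisphosphate, an activator of phosphofructokinase. PFKFB4 had 1.52, 1.11 and 1.48 CPM in MM.1S with IT848, against 0.930, 1.09 and 0.966 CPM with DMSO, the lowest treated library lying just above the highest DMSO one. The log2 fold change was 0.47 ± 0.15 (adjusted p = 0.0266), and the call was lost without replicate 1 or 3 of either group (adjusted p from 0.0628 to 0.0919) and with the compared groups alone (0.0714). PFKFB2 fell by 0.24 on the log2 scale and lost its call in 5 of the 6 fits that left out 1 MM.1S library, all but that without replicate 2 with IT848 (adjusted p from 0.0553 to 0.119), without both libraries (0.0616), and when the trend with transcript length was taken out (0.286). PFKFB3 did not pass the test (−0.14 ± 0.07).

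Of the 9 genes of lower glycolysis, 5 rose and 1 fell. That is 66.7% called, against 38.3% of all genes tested and 53.0% of those with at least 10 CPM. PGK1, the first ATP-making enzyme of the pathway, had 332, 368 and 408 CPM in MM.1S with IT848, against 296, 304 and 309 CPM with DMSO. All treated libraries were above all DMSO libraries, although the treated ones spread more, and the log2 fold change was 0.29 ± 0.06 (adjusted p = 0.00113). PKM, pyruvate kinase, rose by 0.24 ± 0.03, GAPDH by 0.19 ± 0.03, and the aldolases ALDOC and ALDOA by 0.25 ± 0.06 and 0.15 ± 0.04. With the length trend taken out, GAPDH (0.08, adjusted p = 0.0845) and ALDOA (0.07, adjusted p = 0.178) were no longer called, and ALDOA was not called without both libraries either (adjusted p = 0.0514). ENO1, an enolase, fell by 0.11, a call that 13 of 21 alternatives did not keep (highest adjusted p = 0.136), among them the fits without any 1 U266 library, without MM.1S DMSO replicate 2 or 3, without MM.1S IT848 replicate 1 or 2, and without both libraries with other-line reads (0.129). TPI1 (0.06), PGAM1 (0.02) and ENO2 (0.07) did not pass, although ENO2 was called at 0.14 without replicate 3 with IT848 (adjusted p = 0.0366). GAPDH, PKM, LDHA, PGK1, PGAM1, ENO1, TPI1 and ALDOA have processed pseudogene copies, so their counts are uncertain to the extent that reads with several alignments were shared or dropped.

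At the exit of the pathway, PDK1 had 318, 325 and 348 CPM in MM.1S with IT848, against 401, 385 and 401 CPM with DMSO. These groups did not overlap, and the log2 fold change was −0.26 ± 0.04 (adjusted p = 0.000132). With the length trend taken out, the PDK1 change was −0.18 ± 0.04 and still called (adjusted p = 0.00417). LDHA fell by 0.23, with 2830 ± 153 against 3330 ± 153 CPM. LDHB, the second lactate dehydrogenase subunit, was at 557 ± 76.9 against 512 ± 35.2 CPM and did not pass (0.12 ± 0.08, adjusted p = 0.239). It was called without replicate 1 with IT848 (0.23, adjusted p = 0.0211).

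HIF1A itself had 93.5, 89.2 and 90.5 CPM in MM.1S with IT848, against 79.7, 79.4 and 81.7 CPM with DMSO. The groups were apart by a small margin, with a log2 fold change of 0.18 ± 0.05 (adjusted p = 0.00804). The antisense transcript HIF1A-AS2 ranged over 8.59 to 9.17 CPM with IT848 against 7.85 to 8.06 CPM with DMSO, and whether counting used strand is not given in the sources used here, so shared reads are possible. EGLN2 had 37.9, 36.4 and 37.0 CPM with IT848, against 29.9, 32.0 and 31.6 CPM with DMSO. Its log2 fold change was 0.25 ± 0.07 (adjusted p = 0.0101), but it may share reads with the readthrough symbol RAB4B-EGLN2, at 23.4 to 24.3 against 18.5 to 20.1 CPM. EGLN1, regarded as the main oxygen sensor, did not pass (0.07 ± 0.05), and was called at 0.20 with the length trend taken out (adjusted p = 0.00737).

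Of the 7 other hypoxia targets, BNIP3, ANKRD37 and NDRG1 fell, BNIP3L rose and 3 did not pass in MM.1S. The called share was 57.1%, against 38.3% of all genes tested and 53.0% of those with at least 10 CPM. BNIP3, a mitophagy receptor, had 0.548, 0.565 and 0.418 CPM with IT848, against 0.718, 1.09 and 0.615 CPM with DMSO, from 22 to 55 counts per library. The log2 fold change of −0.63 ± 0.20 (adjusted p = 0.0253) was −0.39 (0.165) without replicate 2 with DMSO, the library with U266 reads, and −0.50 (0.104) without replicate 3 with IT848. Without both libraries with other-line reads it was −0.38 ± 0.18 (0.177), and the compared groups alone gave 0.108. BNIP3L, a second mitophagy receptor, rose by 0.22, a call lost without replicate 3 with IT848 (adjusted p = 0.0501) and without both libraries (0.0511). NDRG1, a stress-responsive gene, fell by 0.11 and lost its call in 16 of 21 alternatives (highest adjusted p = 0.185), among them the fits without any 1 library other than MM.1S IT848 replicate 1 and the fit without both libraries with other-line reads (0.129). VEGFA, the vascular growth factor (0.01), ADM, the vasodilator peptide adrenomedullin (−0.03), and KDM3A, a histone demethylase (0.00), did not pass.

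In U266, few of these genes responded, and the largest changes were in secreted and nuclear hypoxia targets. ANKRD37, VEGFA, ADM and SLC2A1 rose, and GPI and ALDOC fell. The 6 called of 35 are 17.1%, against 9.01% of all genes tested, of which 4.03% were higher and 4.98% lower. Among genes of at least 10 CPM, 5 of 32 were called (15.6%), against 13.4% of all such genes. The median log2 fold change was −0.03, against 0.01 for all genes. Without both libraries with other-line reads, GPI, VEGFA and ADM were the 3 called, against 5.46% of all genes, and 3 were called without replicate 1 with IT848 alone.

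ANKRD37, an ankyrin repeat protein known as a HIF target, had 3.29, 2.73 and 3.04 CPM in U266 with IT848, against 2.46, 1.97 and 1.95 CPM with DMSO. The groups did not overlap, and the log2 fold change was 0.51 ± 0.13 (adjusted p = 0.0201). The call was lost without replicate 2 or 3 with DMSO (adjusted p = 0.0828 and 0.104), without replicate 1 or 3 with IT848 (0.0891 and 0.0657) and without both libraries (0.109). VEGFA falls outside the rule for genes given in full, and ADM is under it only for the comparison of the lines; both are given here because of values already seen. VEGFA had 814, 778 and 822 CPM with IT848, against 625, 635 and 594 CPM with DMSO, a clear separation of 0.38 ± 0.05 (adjusted p = 0.000307). ADM had 17.7, 16.2 and 18.8 CPM with IT848, against 13.7, 12.4 and 13.8 CPM with DMSO, also without overlap (0.40 ± 0.07, adjusted p = 0.00119). Both stayed called in every one of the 21 alternatives run.

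SLC2A1 had 7.09, 6.89 and 7.08 CPM in U266 with IT848, against 5.60, 5.86 and 5.59 CPM with DMSO. The groups were apart, but the adjusted p was 0.0474 (0.31 ± 0.09), and 13 of 21 alternatives did not keep the call, among them the fit without any 1 of the 6 U266 libraries (adjusted p from 0.0692 to 0.129), those without MM.1S DMSO replicate 1, 2 or 3 or MM.1S IT848 replicate 2 (0.0616 to 0.065), and the fit without both libraries (0.143). GPI had 610, 587 and 622 CPM with IT848, against 683, 681 and 680 CPM with DMSO, and fell by 0.17 (SE 0.04, adjusted p = 0.00657). ALDOC had 18.2, 17.8 and 19.8 CPM with IT848, against 21.8, 21.5 and 21.5 CPM with DMSO. It fell by 0.21 (SE 0.05, adjusted p = 0.0236), a call lost without any 1 DMSO library (adjusted p from 0.0575 to 0.0774), without replicate 1 or 2 with IT848 (0.0965 and 0.108) and without both libraries (0.134).

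None of the remaining genes was called in U266 by the main test. HIF1A had 111, 115 and 122 CPM with IT848, against 102, 111 and 102 CPM with DMSO, and the ranges met at 111 CPM (0.14 ± 0.05, adjusted p = 0.0953). EGLN2 had 29.2, 27.0 and 28.5 CPM against 21.2, 25.2 and 26.4 CPM (0.22 ± 0.07, adjusted p = 0.074), without overlap. LDHA had 2850, 2890 and 2970 CPM with IT848, against 3140, 3110 and 3050 CPM with DMSO (−0.10 ± 0.04, adjusted p = 0.216). In these 3 genes the difference did not pass the test. HIF1A was called without U266 DMSO replicate 2 (0.19, adjusted p = 0.0322) and with the length trend taken out (0.039), and EGLN2 without U266 DMSO replicate 3 (0.29, adjusted p = 0.0413). PFKL (−0.12) was likewise called without U266 DMSO replicate 2 (−0.18, adjusted p = 0.0137), TPI1 (−0.08) with the length trend taken out (0.0443), and NDRG1 (−0.12) with DESeq2 (0.0151), with the compared groups alone (0.0446) and without MM.1S IT848 replicate 1 or 3 (0.0417 and 0.0488). PFKFB4, the PFKFB gene with the largest change, had 2.31, 2.32 and 2.34 CPM against 2.46, 2.41 and 2.43 CPM (−0.07 ± 0.13). SLC2A3 was close to absent, at 0.0415 to 0.134 against 0.0328 to 0.109 CPM, from 2 to 8 counts per library, too few to give a direction (0.23 ± 0.51, and −0.31 without both libraries with other-line reads).

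**Figure D2:**
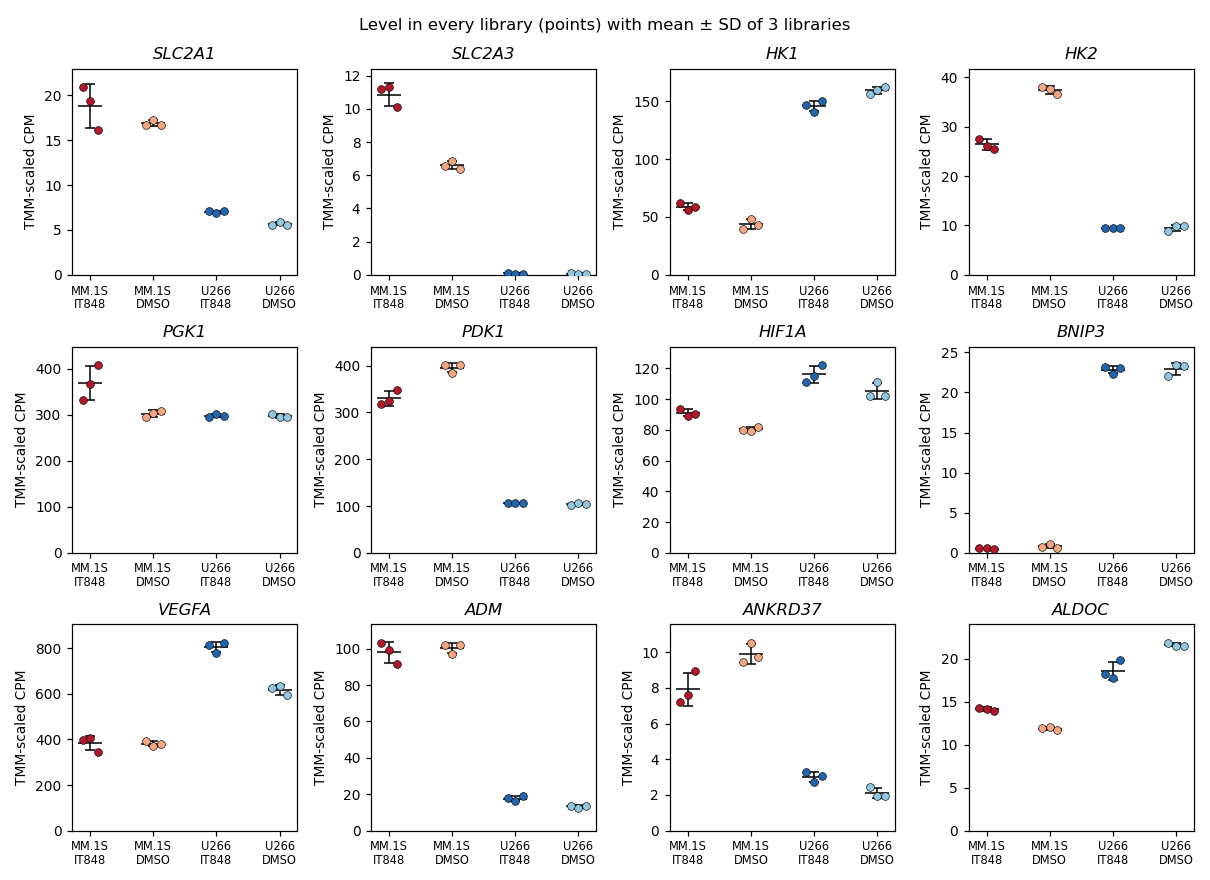
TMM-scaled CPM (vertical axes, from 0) of 12 genes in each of the 12 libraries, as points, with the mean ± SD of the 3 libraries of each group. HK1 and HK2 separate by treatment in opposite directions in MM.1S, VEGFA and ADM separate in U266, SLC2A3 is near 0 in U266, and BNIP3 is near 0 in MM.1S.

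Whether the responses of the lines differed was tested directly, as the MM.1S response minus the U266 response. The difference was called for 13 of 35 genes (37.1%), 7 positive and 6 negative, against 17.4% of all genes tested, of which 8.49% were positive and 8.94% negative. Among genes of at least 10 CPM it was 12 of 32 (37.5%), against 25.8%. Without both libraries with other-line reads, 10 were called, against 10.1% of all genes. ANKRD37 had the most negative difference, −0.83 ± 0.16 (adjusted p = 0.00313). In MM.1S it had 7.19, 7.62 and 8.92 CPM with IT848, against 9.45, 10.5 and 9.74 CPM with DMSO, a fall of 0.32 that was itself not called without replicate 2 with DMSO (adjusted p = 0.0865), without replicate 1 or 2 with IT848 (0.105 and 0.0821) or without both libraries (0.10). The difference stayed called without both libraries, at −0.72 ± 0.19 (adjusted p = 0.0298).

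Among enzymes, HK1 (0.56 ± 0.09, adjusted p = 0.000577) and HK2 (−0.50 ± 0.08, adjusted p = 0.000851) differed between the lines in opposite directions. In U266, HK1 had 147, 141 and 150 CPM with IT848, against 156, 160 and 162 CPM with DMSO, and HK2 had 9.41, 9.44 and 9.54 against 8.80, 9.83 and 9.83 CPM. Neither U266 change passed the test (−0.12 ± 0.06 and −0.01 ± 0.06). Of the 9 genes of lower glycolysis, 5 had a called positive difference, from 0.22 to 0.46, namely ALDOA, ALDOC, GAPDH, PGK1 and PKM. That is 55.6%, against 17.4% of all genes tested and 25.8% of those with at least 10 CPM, in either direction. The ALDOA difference was not called with the length trend taken out (adjusted p = 0.0637) or without both libraries (0.0828). The PGK1 difference of 0.29 was lost without U266 DMSO replicate 1, U266 IT848 replicate 1 or 3, MM.1S DMSO replicate 1 or 2 (adjusted p from 0.05 to 0.0613), and without both libraries (0.0944). Negative differences were called for SLC16A1 (−0.31), PDK1 (−0.28), VEGFA (−0.37) and ADM (−0.44), and a positive one for BNIP3L (0.34), which was not called without both libraries (adjusted p = 0.0816). Some differences that did not pass were called in alternatives. PFKFB4 (0.53) was called without MM.1S IT848 replicate 2 (0.67, adjusted p = 0.0334). TPI1 (0.14) was called without MM.1S DMSO replicate 3 or MM.1S IT848 replicate 1 (0.0433 and 0.0414). BNIP3 (−0.63) was called without MM.1S DMSO replicate 3 (−0.77, adjusted p = 0.0265), but was −0.37 (0.288) without both libraries with other-line reads. EGLN1, ENO1 and LDHA were called with the length trend taken out (0.0112, 0.0221 and 0.0353).

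More of these genes were called between the lines than under IT848 in either line, which also held for all genes tested. Of 35 genes, 33 were called between MM.1S and U266 under DMSO, 17 higher and 16 lower in MM.1S (94.3%, against 82.6% of all genes tested, of which 40.6% were higher and 42.1% lower). For genes of at least 10 CPM it was 30 of 32 (93.8%), against 86.2%. KDM3A and PGK1 were not called, and the LDHA call (0.10) was lost in 13 of 20 alternatives (highest adjusted p = 0.161), among them the fits without any 1 U266 library, without MM.1S DMSO replicate 2 or 3, and without both libraries with other-line reads (0.0985).

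Higher in MM.1S were SLC2A3, with 6.58, 6.84 and 6.37 CPM against 0.109, 0.0328 and 0.0638 CPM in U266 (log2 fold change 6.57 ± 0.22, on 2 to 6 counts per U266 library), and ADM, with 102, 97.0 and 102 against 13.7, 12.4 and 13.8 CPM (2.91 ± 0.07). ANKRD37 (2.22 ± 0.12) and HK2 (1.98 ± 0.06) followed, with 9.90 ± 0.544 against 2.13 ± 0.292 CPM and 37.4 ± 0.738 against 9.49 ± 0.594 CPM. No library of either line overlapped with the other in these 4 genes. This does not set them apart, because of the 35 tested genes only PGK1 overlapped between the lines. The share without overlap over all genes was not computed. Lower in MM.1S was PFKP, the platelet-type phosphofructokinase, with 0.901, 1.64 and 0.808 CPM against 168, 158 and 163 CPM in U266 (−7.23 ± 0.15). The 1.64 CPM was in the library with U266 reads: it exceeded the mean of its fellow replicates by 0.787 CPM, and a share of 0.428% of the U266 level would be 0.698 CPM. BNIP3 had 0.718, 1.09 and 0.615 CPM against 22.1, 23.4 and 23.3 CPM (−4.85 ± 0.12), and there the same share would be 0.098 CPM of an excess of 0.422 CPM. PKM (2030 ± 49.6 against 8040 ± 186 CPM, −1.99 ± 0.03) and HK1 (43.6 ± 4.22 against 159 ± 3.02 CPM, −1.87 ± 0.06) were also lower. For HK1 the same share would be 0.681 CPM of an excess of 6.94 CPM in replicate 2 of MM.1S with DMSO. The source of these excesses was not tested.

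**Figure D3:**
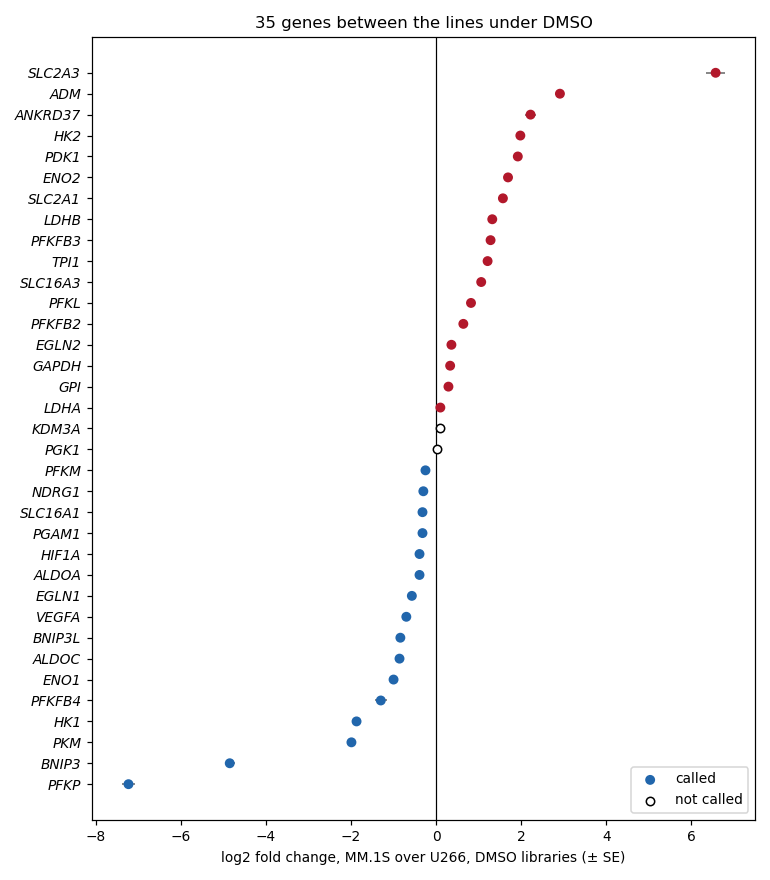
Log2 fold change (MM.1S over U266, DMSO libraries, ± SE) of the 35 tested genes, in order; red is higher and blue lower in MM.1S, and open symbols were not called. PFKP at −7.23 and SLC2A3 at 6.57 mark the ends, and KDM3A and PGK1 are the open symbols.

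To compare levels between genes, the deposited FPKM of each gene's most counted transcript was used, which accounts for length. GAPDH was the most abundant in every group, at 976 FPKM in MM.1S with IT848, 867 in MM.1S with DMSO and 704 in U266 with DMSO. In MM.1S with DMSO it was followed by LDHA (242 FPKM) and by ALDOA and TPI1 (225 and 221 FPKM), whose ranges overlapped. U266 with DMSO had PKM (462 FPKM), ENO1 (402) and ALDOA (301) next, each apart from its neighbour. EGLN3 was the lowest in MM.1S with IT848, at 0.0559 FPKM.

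Within a step, the lines differed in the shares of the isozymes. HK1 made up 46.8% ± 0.862 of hexokinase FPKM in MM.1S with IT848 and 31.4% ± 2.09 with DMSO (SD, n = 3), and 85.9% ± 0.312 and 86.9% ± 0.533 in U266. The ratio of HK2 to HK1 was 1.12, 1.18 and 1.11 in MM.1S with IT848, against 2.41, 1.98 and 2.18 with DMSO. The ranges are far apart, but 3 against 3 libraries allow no two-sided exact permutation p below 0.1, which this was (0.167 adjusted over 10 ratio tests). In U266 the ratio was 0.161, 0.168 and 0.161 against 0.143, 0.156 and 0.154. This was a smaller shift the other way (0.12 against −0.94 on the log2 scale) with the same permutation p. The permutation p was also 0.1 for LDHB over LDHA in both lines. It was 0.1 in MM.1S for PFKL over PFKM and for SLC2A1 over SLC2A3. PFKP supplied 47.6% ± 0.439 of phosphofructokinase FPKM in U266 with IT848 and 47.8% ± 0.949 with DMSO, and 0.363% ± 0.11 and 0.457% ± 0.201 in MM.1S, where PFKL supplied 73.1% and 74.3%. LDHB was 46.5% ± 2.05 of lactate dehydrogenase FPKM in MM.1S with IT848 and 40.6% ± 0.567 with DMSO, and 24.4% ± 0.554 and 22.8% ± 0.53 in U266. ENO2, the neuronal-type enolase, was 19.2% ± 1.43 and 17.3% ± 1.06 in MM.1S and 3.06% and 3.15% in U266.

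**Figure D4:**
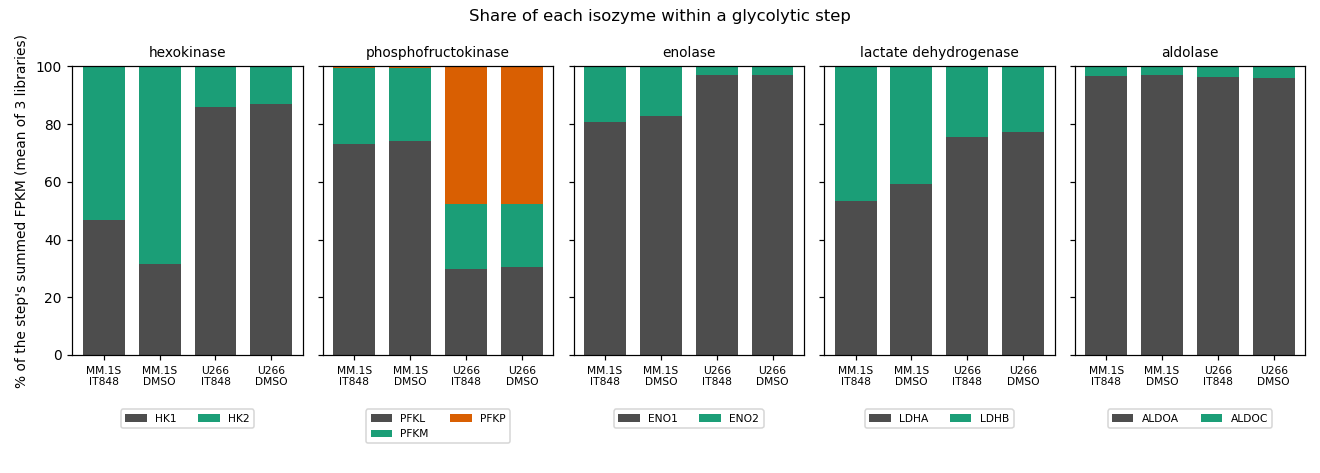
Share of each isozyme in the summed FPKM of its step (vertical axis, percent, mean of 3 libraries per group). The HK1 part is 46.8% in MM.1S with IT848 and 31.4% with DMSO, and PFKP takes 47.6% and 47.8% in U266 but under 1% in MM.1S.

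Other genes of these pathways were read from 3 lists, drawn up with earlier results of these data known. A share above that of all genes is therefore no evidence of a response of a list. Of 43 tested genes of glycolytic branches and regulation, 7 rose and 9 fell in MM.1S (37.2%, against 38.3% of all genes), and 2 rose and 4 fell in U266 (14.0%, against 9.01%). Of 24 genes of the HIF machinery, 5 rose and 7 fell in MM.1S (50%, against 38.3% of all genes). In U266, 0 of them rose and 1 fell (4.17%, against 9.01%). Of 58 further hypoxia targets, 18 rose and 11 fell in MM.1S (50%, against 38.3%). In U266, 13 of these targets rose and 1 fell (24.1%, against 9.01%). Among all genes of at least 10 CPM, 53.0% were called in MM.1S and 13.4% in U266. In this last list the median log2 fold change was 0.10 in MM.1S and 0.05 in U266, against −0.01 and 0.01 for all genes. The largest change in it was that of HMOX1, the heme-degrading enzyme, at 1250 ± 71.4 against 18.6 ± 2.44 CPM in MM.1S (6.08 ± 0.10) and 781 ± 70.3 against 29.3 ± 0.461 CPM in U266 (4.73 ± 0.09). P4HA2, a subunit of collagen prolyl 4-hydroxylase, rose in MM.1S (133 ± 3.55 against 15.5 ± 0.581 CPM, 3.11 ± 0.11) and in U266 (34.2 ± 3.14 against 16.5 ± 3.37 CPM, 1.05 ± 0.11). PLOD1, a lysyl hydroxylase of collagen, rose by 1.13 ± 0.05 in MM.1S, and the chemokine receptor CXCR4 fell to 29.4 ± 1.45 CPM there, against 68.9 ± 3.54 CPM with DMSO (−1.23 ± 0.05).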

How the data were processed

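The submitters' processing notes name the hg19 build and, with no order or role, STAR 2.5.2b, Trimmomatic 0.36, bcl2fastq and, from Subread 1.5.2, featureCounts. Strand and multi-mapping settings were not given in the sources used. The deposited tables give the authors' count, FPKM and TPM for each of 51780 RefSeq transcripts in 12 libraries. Transcripts of a gene each counted the reads they share, so sums over a gene's transcripts repeat reads and are not comparable between genes. Counts were summed per symbol. The deposited FPKM of the most counted transcript gave levels between genes and transcript length, and the deposited TPM served as a check.

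The test was edgeR 4.0.16's quasi-likelihood F test (robust, TMM scaling, expression filter at a minimum count of 10) on all 12 libraries with a mean per group, followed by Benjamini-Hochberg adjustment over 16782 genes and a threshold of 0.05. CPM are TMM-scaled. The test was also run on simulated counts, drawn independently with the spread of these data and with changes planted in MM.1S. The planted changes were larger than most IT848 changes reported here. That run therefore does not check the small changes or the repeated counting of shared reads. Depth was 22887470 to 32913398 counts with 1 transcript per gene. Relative counting error is largest below about 1 CPM, but is not negligible for genes of a few CPM. For example, ANKRD37 had 120 to 220 counts per U266 library, and PFKFB4 had 55 to 86 per MM.1S library.

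The genes and lists were chosen with earlier results of these data known. Genes are given in full if they were called with an absolute log2 fold change of at least 0.5 under IT848 or in the difference, if they had the largest change of their role group, if they were among the 4 most changed in either direction between the lines, and HIF1A always. Other pathway genes are named at an absolute log2 fold change of at least 1. Any further gene was named after its values were seen. Alternatives were DESeq2 1.42.0 and its size factors, total count scaling, no expression filter, the most counted transcript, the compared groups alone, a replicate block, removal of the length trend, each library left out, and both libraries with other-line reads left out. The labels do not say that a replicate number pairs libraries, so the main test did not treat replicate numbers as pairs. Same-numbered libraries deviated together in some pairs and not in others.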

Additional observations from a re-analysis of the deposited data

Results flagged for a closer look

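For 13 genes the IT848 response differed between the lines by the test of the difference itself (MM.1S minus U266, log2 scale, edgeR, adjusted p below 0.05). They are 37.1% of the 35 tested, against 17.4% of all genes tested. Among genes of at least 10 CPM the shares were 37.5% and 25.8%. The difference was positive for HK1 (0.56), ALDOC (0.46), BNIP3L (0.34), PGK1 (0.29), PKM (0.29), GAPDH (0.25) and ALDOA (0.22). It was negative for ANKRD37 (−0.83), HK2 (−0.50), ADM (−0.44), VEGFA (−0.37), SLC16A1 (−0.31) and PDK1 (−0.28). ANKRD37 and ALDOC were called in both lines with opposite signs: ANKRD37 fell by 0.32 in MM.1S and rose by 0.51 in U266, and ALDOC rose by 0.25 in MM.1S and fell by 0.21 in U266. Without both libraries with other-line reads, ANKRD37 was called in neither line (adjusted p = 0.1 in MM.1S and 0.109 in U266). ALDOC was then not called in U266 (0.134). The differences of ALDOA (0.0828), PGK1 (0.0944) and BNIP3L (0.0816) were not called in that fit either.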

How the results depend on the processing

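Of the log2 fold changes of the genes under the alternatives, 2648 kept direction and side of the threshold, 106 lost a call, 35 gained one and 80 had the opposite sign; no value called in either fit changed sign. Leaving out both libraries with other-line reads gave 924 called genes in U266, against 1512 with all libraries, and 1712 for the difference, against 2924; of the 35 genes, 3 in U266 (against 6) and 15 in MM.1S (against 23). The cause was not tested; the fit also has fewer samples. Leaving out 1 library at a time gave 986 to 1827 genes in U266, 5110 to 6681 in MM.1S, 2208 to 3870 for the difference and 13480 to 14177 between the lines; of the 35 genes, 3 to 7, 18 to 21, 12 to 15 and 32 to 33. With the replicate block, 4388 genes were called for the difference, and 7, 25 and 17 of the 35 genes in U266, MM.1S and the difference. GPI and LDHB in MM.1S (adjusted p = 0.0471 and 0.0293) and LDHA in U266 (0.0499) were among those the block added. The correlations of same-numbered libraries were 0.27, 0.223 and −0.0673 in U266 and 0.51, −0.148 and 0.51 in MM.1S. DESeq2 called 7, 24, 15 and 32 of the 35 genes in U266, MM.1S, the difference and between the lines. Genes below about 1 CPM (BNIP3 and PFKP in MM.1S, SLC2A3 in U266) rest on few counts. The wider choice of line-specific genes was added after the data were seen.

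The values with the opposite sign, all log2 and none called, belong to 16 genes, and the cause was not tested. In U266, SLC2A3 (0.23) was −0.31 without both libraries with other-line reads and −0.31 to 0.68 without 1 library. PFKFB3 (0.01) was −0.01 with DESeq2 and with its size factors, −0.08 without both libraries and −0.08 to 0.07 without 1. PFKFB2 (−0.01) was 0.03 with the length trend taken out, 0.06 without both libraries and −0.10 to 0.06 without 1. HK2 (−0.01) was 0.03 with the length trend taken out and −0.06 to 0.02 without 1 library. SLC16A1 (−0.03) was 0.00 without both libraries and −0.05 to 0.00 without 1. PGK1 (0.00) was −0.01 with DESeq2 and with its size factors, 0.00 with the length trend taken out and 0.00 to 0.01 without 1 library. ENO1 (0.00) was 0.00 without both libraries and −0.01 to 0.01 without 1. BNIP3 (0.00) was 0.00 with the compared groups alone and −0.03 to 0.02 without 1 library. KDM3A (0.00) was −0.01 with DESeq2 and with its size factors and −0.01 to 0.03 without 1 library. In MM.1S, TPI1 (0.06) was −0.05 with the length trend taken out. PGAM1 (0.02) was 0.00 with total count scaling, −0.06 with the length trend taken out and −0.04 to 0.09 without 1 library. VEGFA (0.01) was −0.01 with total count scaling and −0.03 to 0.09 without 1 library, and ADM (−0.03) was −0.06 to 0.02 without 1. KDM3A (0.00) was 0.00 with DESeq2 and with its size factors, 0.01 with no low-count filter, 0.02 with the compared groups alone and without both libraries, 0.08 with the length trend taken out and −0.01 to 0.02 without 1 library. For the difference, KDM3A (−0.01) was 0.01 with DESeq2, with its size factors and with no low-count filter, 0.06 with the length trend taken out, 0.02 without both libraries and −0.02 to 0.02 without 1. LDHB (0.09) was 0.00 with the length trend taken out and −0.02 to 0.19 without 1 library, NDRG1 (0.01) was −0.01 with total count scaling and −0.01 to 0.04 without 1, and EGLN2 (0.03) was −0.02 to 0.14 without 1. Between the lines, PGK1 (0.02) was 0.00 with total count scaling.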
